A study of Mus musculus with 18 samples.

Results

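H3K4me3 at meiotic recombination hotspots was compared between inbred C57BL/6 (B6) testis, which carries 2 B6 copies of Prdm9 (B6/B6), and testis of the infertile (PWDxB6)F1 hybrid, which carries 1 B6 copy of Prdm9 beside 1 PWD copy (PWD/B6). The unit was a bin of 1 kb around the centre of a DMC1 hotspot, in which the authors counted H3K4me3 ChIP-seq fragments whether or not a peak was present. Each autosomal B6/B6 bin was joined to the infertile bin whose centre was nearest and within 1000 bp, and bins that the authors flagged as lying on H3K4me3 probably independent of PRDM9 were set aside. This left 6477 pairs, out of 15992 unflagged autosomal bins in the B6/B6 table, 19760 in the infertile table and 88578 autosomal bins, flagged or not, in all 5 H3K4me3 tables of the series. A further 511 pairs flagged in both tables served as a reference, and 24 pairs flagged in 1 table only were left out of both sets.

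PRDM9 binds DNA through an array of zinc fingers and trimethylates lysine 4 of histone H3 on the neighbouring nucleosomes. The double-strand breaks that start recombination form at these marked sites, and the strand exchange protein DMC1 coats the resected ends, so DMC1 ChIP maps the breaks in spermatocytes. The zinc fingers differ between the B6 and PWD alleles, which therefore mark different sites. In the subspecies hybrid the binding sites themselves differ between the homologous chromosomes, so that an allele can mark 1 homologue and not the other.

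All H3K4me3 libraries came from whole adult testis, fixed in formaldehyde and precipitated with the same antibody (Abcam ab8580). The B6/B6 data were 1 biological library of 70 to 80 M (1 M being 1000000) usable read pairs, split by the authors into 2 pseudoreplicates. Its input was that of B6 mice homozygous for a humanized Prdm9 (Hum/Hum). The infertile data were 2 biological replicates of 40 to 50 M usable read pairs each with an input of their own, and these mice were littermates of fertile mice that carry the humanized allele beside PWD (the rescue cross). Reads were 51 bp long. The reciprocal (B6xPWD)F1 carries the same Prdm9 alleles from the opposite parents and is used below for comparison. Each DMC1 map of an F1 cross came from 1 library of males aged about 10 weeks. The DMC1 map of B6/B6 was deposited with the whole series and is treated as 1 library. It re-analyses a library of other submitters, so the B6/B6 hotspot positions and every heat ratio to B6/B6 cross studies. Whole testis holds all germ cell stages and somatic cells, so a lower signal from fewer cells at the stage of PRDM9 activity cannot be told apart from a lower signal per cell.

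The following 5 bins show the kinds of site that were compared. Within 50 bp of its centre each has a match to 9 positions of the B6 PRDM9 hotspot consensus, GNTGCTNCT, where N is any base. They are the 2 bins with the most reads that tell the 2 homologues apart, among bins with such a match, in each of 3 classes of the share of infertile H3K4me3 from the B6 chromosome, with 1 bin of the last class not shown. They were chosen for display after the values had been seen. The reference B6 sequence (GRCm38, the mm10 build, plus strand, 101 bases) is given with the match in capitals, on either strand. The sequence of the PWD homologue was not used here.
Hs3st3b1: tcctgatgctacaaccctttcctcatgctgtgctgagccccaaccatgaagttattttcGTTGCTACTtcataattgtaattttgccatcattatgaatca
Wdfy2: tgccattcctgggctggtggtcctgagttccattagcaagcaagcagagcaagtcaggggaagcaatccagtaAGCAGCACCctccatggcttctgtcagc
Agtpbp1: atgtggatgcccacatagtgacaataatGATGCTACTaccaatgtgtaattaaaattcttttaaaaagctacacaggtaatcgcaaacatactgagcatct
Snrnp200: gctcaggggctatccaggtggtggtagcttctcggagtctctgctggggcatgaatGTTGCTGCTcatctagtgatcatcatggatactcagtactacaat
Tmtc1: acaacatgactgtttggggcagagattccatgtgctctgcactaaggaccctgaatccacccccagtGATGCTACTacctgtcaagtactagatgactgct

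The first pair carried nearly all infertile H3K4me3 on the PWD chromosome. The window near Hs3st3b1, at chr11:63631759-63631859 and 253983 bp from that heparan sulfate sulfotransferase gene, had a B6 share of 0.0145 over 295 informative reads (95% exact interval 0.00371 to 0.0344). Its ChIP counts, not scaled for depth, were 27 and 25 in the B6/B6 pseudoreplicates and 188 and 214 in the infertile replicates. The pseudoreplicates are splits of 1 library, so their closeness gives no spread between animals. In an intron of Wdfy2, at chr14:62905625-62905725, the B6 share was 0.0396 and the counts were 73 and 63 in B6/B6 against 120 and 101 in the infertile F1. Both homologues were marked at the next pair. The window in an intron of Agtpbp1, a carboxypeptidase that trims glutamates from tubulin (chr13:59512022-59512122), had a B6 share of 0.487 and counts of 128 and 125 in B6/B6 against 251 and 259. The window in a coding exon of Snrnp200, a spliceosomal helicase (chr2:127234958-127235058), had a B6 share of 0.544 and counts of 166 and 196 against 231 and 240. The last window was marked on the B6 chromosome alone, with a B6 share listed as 1. Counts in an intron of Tmtc1 (chr6:148309743-148309843) were 139 and 134 in B6/B6 against 77 and 76 in the infertile F1. A match to the pattern was required for display, so its presence in all 3 classes says nothing of them. The classes were set by the homologue that carried the mark. Gene names here and below only locate the bins. Coordinates here and below are those of the B6/B6 bin. Infertile counts are from the paired infertile bin, whose centre could lie up to 1000 bp away.

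Pairing required a DMC1 hotspot in both maps, and this chose the stronger B6/B6 sites. Of the unflagged B6/B6 bins, 40.5% had a partner (95% Wilson interval 39.7 to 41.3%). The paired bins had a median B6/B6 enrichment of 1.03 and a median DMC1 heat, the authors' measure of hotspot strength, of 124. The 9515 bins without a partner had medians of 0.184 and 29.1. With B6/B6 bins ranked by DMC1 heat into 4 groups of equal size, from cold to hot, 10.7, 16.9, 44.3 and 90.2% of bins were paired. The results therefore describe B6 hotspots that were still found in the hybrid.

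The deposited enrichment measures the ChIP fragments above background relative to local background coverage, with a floor of 0. It followed the excess of ChIP fragments per input fragment almost exactly (Spearman rho over bins above 0.999 in both tables), so its scale depends on the depth of ChIP against input in each table. The absolute ratio of the infertile to the B6/B6 value is therefore tied to that scale, whereas differences between sets of bins in the same pair of tables depend on it only through the constant added before taking logs. Log2 ratios below were taken after adding 0.1 to each enrichment. With 1 B6/B6 library against 2 infertile ones an exact permutation test cannot go below p = 0.333, and medians are given as descriptions with the value of each infertile replicate.

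Over the 6477 pairs the median enrichment was 1.03 in B6/B6 and 0.919 in the infertile F1. The median log2 ratio, infertile over B6/B6, was -0.17, with -0.14 from infertile replicate 1 and -0.12 from replicate 2. At the flagged pairs it was 0.27, which puts the PRDM9-type bins 0.43 below the flagged ones on the log2 scale, a fold of 0.740 (differences of -0.42 and -0.43 in the replicates). The size of that difference depended on which bins entered it: it was -0.10 when only bins assigned to the B6 allele were kept and -0.29 with pairing within 250 bp. The spread between bins was much wider than this shift, with quartiles of the log2 ratio at -1.05 and 0.92, and 44.9% of pairs were higher in the infertile F1. Median fragment counts per bin were 38 and 39 in the B6/B6 pseudoreplicates with 32 in the input, and 30 and 32 in the infertile replicates with 25 in their input. Across bins, enrichment in the 2 genotypes had a Spearman rho of 0.401 (6476 bins, a description across bins of the same libraries). The 2 infertile replicates reached 0.940 and the 2 B6/B6 pseudoreplicates 0.949; each pair shares an input.

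The homologue that carried the mark in the hybrid separated the pairs. At 4111 pairs with 10 or more informative reads, 63.5% had a B6 share below 0.5, and the median B6 share was 0.390. A share under 0.1, H3K4me3 almost wholly on the PWD chromosome, was found at 1050 pairs (25.5%), a share over 0.9 at 302 (7.35%) and a share from 0.3 to 0.7 at 1844 (44.9%). The authors' column assigned 95.2% of all pairs to the B6 allele, including 97.5% of the pairs with a share under 0.1, though the pairing itself selects such sites. A PWD/PWD hotspot lay within 1000 bp at 2.86% of the pairs with a share under 0.1 and at 4.31% of all pairs. Most sites marked on the PWD chromosome were thus not also sites of the PWD inbred map.

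Sites marked on the PWD chromosome were weak in B6/B6. Pairs with a B6 share under 0.1 had a median enrichment of 0.357 in B6/B6 and 2.30 in the infertile F1. Their median log2 ratio was 2.31 (2.30 and 2.37 in the replicates), a fold of 4.97, and 94.9% were higher in the infertile F1. Pairs with a share from 0.1 to 0.3 had a B6/B6 median of 1.09, an infertile median of 1.77 and a log2 ratio of 0.75. At shares from 0.3 to 0.7 the medians were 1.71 and 1.41, the log2 ratio was -0.16 and 42.7% were higher in the hybrid. Against the flagged pairs the difference in log2 ratio of this class was -0.43.

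Sites marked on the B6 chromosome were strong in B6/B6 and lower in the hybrid. At shares over 0.9 the median was 1.77 in B6/B6 and 0.873 in the infertile F1, a log2 ratio of -0.87 (-0.89 and -0.88 in the replicates) or a fold of 0.549, with 20.2% higher in the hybrid. At shares from 0.7 to 0.9 the log2 ratio was -0.65. Against the bins marked on both homologues, the log2 ratio was 2.47 higher at shares under 0.1 (2.47 and 2.49 in the replicates) and 0.70 lower at shares over 0.9 (0.72 and 0.75 lower in the replicates). Those differences exceed the difference between the infertile replicates; the single B6/B6 library gives no spread of its own. With 0.5 added in place of 0.1 they were 1.69 and -0.54, and with nothing added 2.57 and -0.78. Close to the class limits the change was gradual, with a log2 ratio of 1.91 at 289 pairs with shares of 0.05 to 0.1 and 1.12 at 208 pairs with shares of 0.1 to 0.15. At the upper limit it was -0.60 at 61 pairs with shares of 0.85 to 0.9 and -0.76 at 65 pairs with shares of 0.9 to 0.95.

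**Figure D1:**
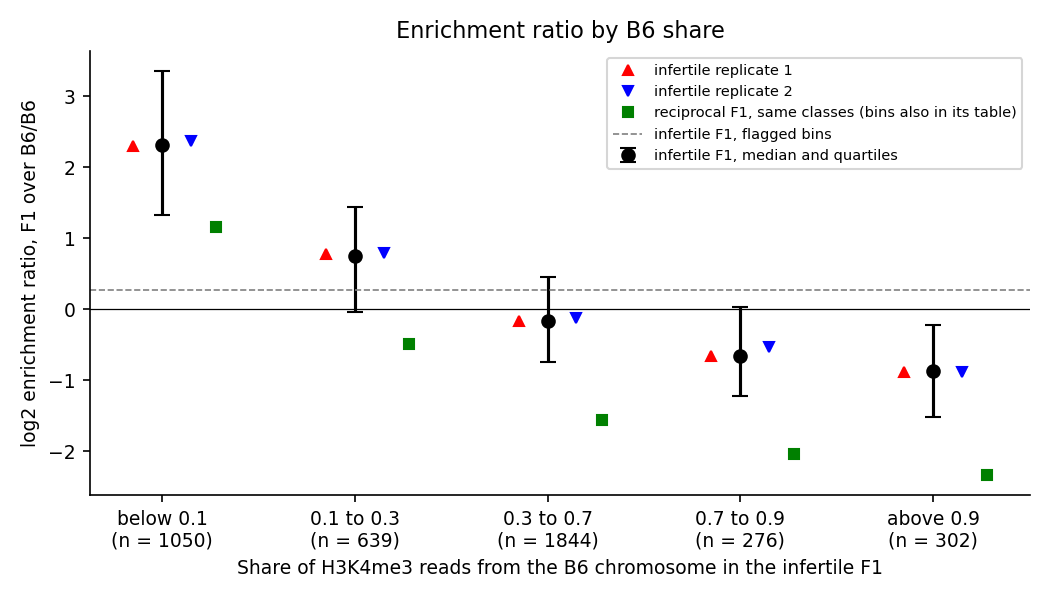
The y axis gives the log2 enrichment ratio of the F1 over B6/B6 and the x axis the class of B6 share in the infertile F1; black points are medians over bins with quartiles as bars, triangles the infertile replicates, squares the reciprocal F1 at the same classes and the dashed line the flagged bins at 0.27. The infertile medians run from 2.31 at shares under 0.1 to -0.87 at shares over 0.9, and the replicates lie close to each median.

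The infertile ratio and the share come from the same reads, and the minimum of 10 informative reads keeps bins with more infertile signal. The 2366 pairs below that minimum had median enrichments of 0.792 in B6/B6 and 0.294 in the infertile F1, a log2 ratio of -0.90. With classes taken from the B6 share of DMC1 reads instead, a choice made after the data had been seen, the differences from the middle class were 2.42 at shares under 0.1 and -0.63 at shares over 0.9. The B6/B6 level is a measurement in other animals that the share did not enter. It was 0.357 at shares under 0.1 against 1.71 and 1.77 in the middle and upper classes. This level is not free of selection, since a pair entered a class only with an infertile hotspot and 10 or more infertile informative reads. Only 10.7% of the B6/B6 bins were paired in the coldest group by B6/B6 heat, against 90.2% in the hottest. How much of the difference in B6/B6 level comes from this selection was not tested. The quartiles of B6/B6 enrichment were 0.0997 and 0.740 at shares under 0.1 and 1.11 and 2.66 at shares over 0.9, so these ranges did not overlap.

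**Figure D2:**
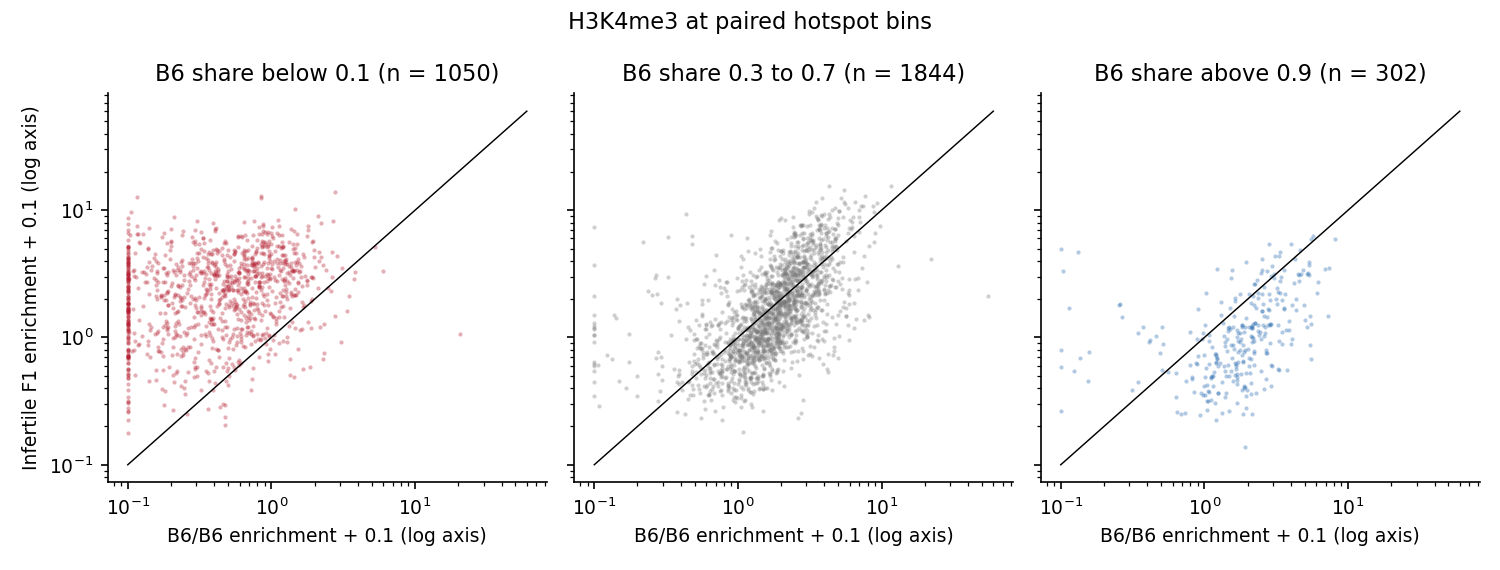
Each point is a paired bin, with B6/B6 enrichment on the x axis and infertile enrichment on the y axis (both with 0.1 added, log axes), in 3 panels by B6 share; the line marks equal values. With shares under 0.1 most of the 1050 points lie above the line and toward low B6/B6 values, and with shares over 0.9 most of the 302 points lie below it.

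Multiplying the infertile enrichment by the B6 share gave the part of the signal on the B6 chromosome. It was doubled to put this single chromosome on the scale of the B6/B6 testis, in which both homologues are B6, and the PWD part was computed likewise. At shares over 0.9 the median B6-chromosome part was 1.70 beside 1.77 in B6/B6, a median log2 ratio of 0.03 (quartiles -0.68 and 0.67). This ratio had no stable sign: it was 0.48 with 30 or more informative reads, -0.34 with classes from DMC1 reads and -0.87 with the reciprocal table in place of the infertile one. At shares from 0.3 to 0.7 the B6-chromosome part was 1.36 and the PWD-chromosome part 1.39, beside 1.71 in B6/B6, with log2 ratios of -0.20 and -0.15. The first of these was 0.15 with 30 or more informative reads. Relative to the undivided ratio of the flagged pairs (0.27), the B6-chromosome ratios were -0.24 at shares over 0.9 and -0.47 at shares from 0.3 to 0.7. The flagged pairs' own B6-chromosome ratio, taken without a minimum of informative reads, was -0.10. That is below the ratio of 0.03 at shares over 0.9 and above the ratio of -0.20 at shares from 0.3 to 0.7.

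At shares under 0.1 the B6-chromosome part was 0.0760 and the PWD-chromosome part 4.47, beside 0.357 in B6/B6. The log2 ratio of the B6-chromosome part to B6/B6 was -1.02 and that of the PWD-chromosome part 3.23. Both levels on the B6 chromosome are low here and the first ratio depends on the constant added, being -0.42 with 0.5 in place of 0.1 and -1.33 with none. Across the 4111 pairs with a share, B6/B6 enrichment had a Spearman rho of 0.735 with the B6-chromosome part of the infertile signal and of -0.02 with the PWD-chromosome part. With the undivided infertile signal it was 0.258. These values pool classes of unlike level. Within the class from 0.3 to 0.7 the rho with B6/B6 was 0.643 for the B6-chromosome part and 0.614 for the PWD-chromosome part (1844 bins), and within the class under 0.1 it was 0.421 and 0.218 (1050 bins). The absence of a relation with the PWD-chromosome part in the pooled pairs was thus not found within these classes. The points share libraries, and no test was made.

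**Figure D3:**
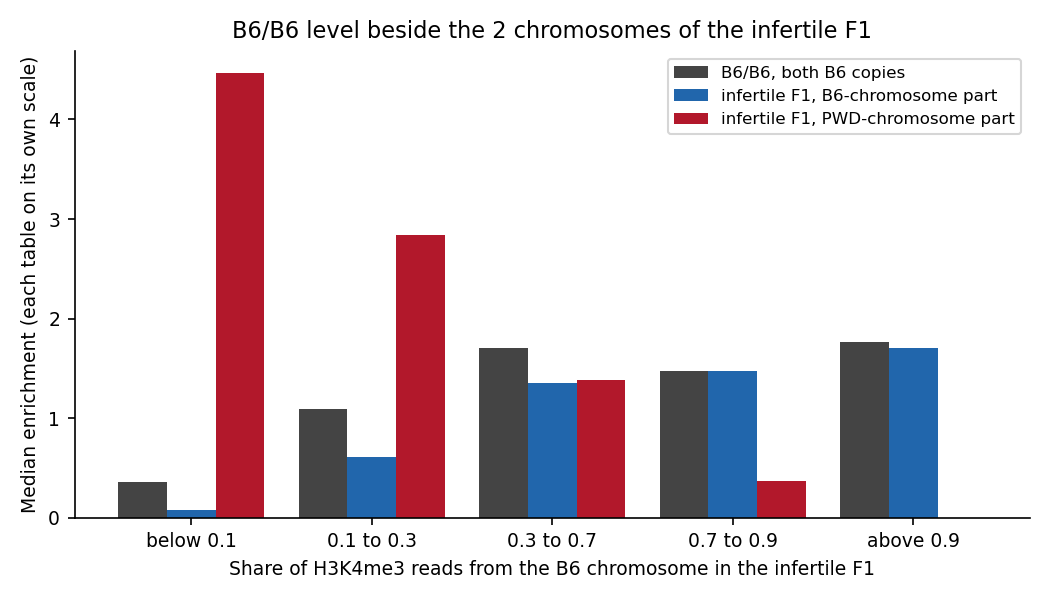
Bars starting at 0 give the median enrichment in B6/B6, and the median of the B6-chromosome and PWD-chromosome parts in the infertile F1, by class of B6 share, with each table on its own scale. At shares over 0.9 the B6/B6 bar is at 1.77 and the B6-chromosome bar at 1.70, and at shares under 0.1 the PWD-chromosome bar (4.47) stands far above both others.

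DMC1 heat, from separate libraries, also differed between these classes. Its scale between the 2 maps is not given in the sources used here, so the classes are compared with each other. The median heat at shares under 0.1 was 52.9 in B6/B6 and 131 in the infertile F1, a median log2 ratio of 1.09. At shares from 0.3 to 0.7 heat was 187 and 39.5, a log2 ratio of -2.12, and at shares over 0.9 it was 178 and 36.1, a log2 ratio of -2.27. The class under 0.1 was therefore 3.21 above the middle class on the log2 scale, while the class over 0.9 lay 0.16 below it. In the class over 0.9 the H3K4me3 ratio was 0.70 lower than in the middle class beside that smaller difference in heat. Across pairs the H3K4me3 ratio and the heat ratio had a rho of 0.724 (6476 bins), and the B6 shares of H3K4me3 and DMC1 reads one of 0.880 (4050 bins). Each DMC1 map was 1 library, without replicate error.

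The classes were also read at sites of like DMC1 heat in B6/B6, with the pairs ranked by it into 4 groups of equal size. B6/B6 H3K4me3, the denominator of the ratio, was not matched by this. In the coldest group its median enrichment was 0.175 at shares under 0.1, 0.803 from 0.3 to 0.7 and 0.532 over 0.9. In the hottest group it was 1.04, 2.15 and 2.34. In the coldest group the log2 H3K4me3 ratio was 2.83 at shares under 0.1 (625 pairs), 0.38 at shares from 0.3 to 0.7 (174 pairs) and 0.95 at shares over 0.9 (38 pairs). In the hottest group these values were 1.32 (51 pairs), -0.03 (793 pairs) and -0.87 (123 pairs). In the second group, counted from cold, they were 1.92 (258 pairs), -0.36 (332 pairs) and -1.04 (57 pairs). In the third they were 1.53 (116 pairs), -0.34 (545 pairs) and -1.04 (84 pairs). Sites with a share under 0.1 thus exceeded those marked on both homologues in every group. Sites with a share over 0.9 lay below those marked on both homologues in every group but the coldest, where they lay above them at 38 pairs. On every one of the 19 autosomes the log2 ratio at shares under 0.1 exceeded that at shares from 0.3 to 0.7, and that at shares over 0.9 was under it. The percentage of pairs with a share under 0.1 ranged from 19.3 on chromosome 1 to 33.3 on chromosome 19.

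ChIP counts were tested bin by bin with edgeR's quasi-likelihood test, scaled to the bulk of the unflagged bins. Among all 6864 tested pairs, flagged or not, 32.3% were called higher in the infertile F1 and 27.6% lower at an adjusted p below 0.05. Of the 6330 tested pairs without a flag, 2010 (31.8%) were called higher and 1711 (27.03%) lower, shares near that background. With library factors from the flagged bins, 1364 of 6361 tested unflagged pairs were called higher and 2171 lower. Over all 6896 pairs tested that way, 1522 were called higher and 2405 lower. The balance of directions thus depends on the scaling. The spread came from the 2 infertile replicates alone, and the single B6/B6 library was assumed to vary like them. DESeq2, which estimated a larger spread, called 1214 of 5396 tested unflagged pairs higher and 103 lower. Over all 5924 pairs that it tested, it called 1372 higher and 192 lower. Above a fold of 2, 20.9% of all 7012 pairs were higher and 11.6% lower, with 1339 higher and 700 lower among the unflagged pairs.

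The calls followed the classes of B6 share. At shares under 0.1, 939 of 1050 tested pairs were called higher and 8 lower. At shares from 0.3 to 0.7, 430 of 1843 were called higher and 480 lower, and at shares over 0.9, 25 of 302 were called higher and 194 lower. Among the pairs with too few informative reads 195 of 2220 were called higher and 854 lower. These counts describe the bins and are no further test of the classes.

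The 6 largest rises called by edgeR were at sites with almost no signal in B6/B6. In an intron of Dock8, a guanine nucleotide exchange factor of immune cells (chr19:25101064-25102064), counts were 8 and 7 in the B6/B6 pseudoreplicates with an input of 48, and 221 and 238 in the infertile replicates with an input of 34. The deposited enrichment was 0 in B6/B6 and 6.48 in the infertile F1, and the B6 share was listed as 0 over 189 informative reads, with an exact upper limit of 0.0193. Scaled for depth, the log2 difference in counts was 5.26 (edgeR adjusted p = 1.0e-77). Near Apela, the gene of a small peptide hormone (chr8:65052742-65053742), counts were 9 and 2 against 150 and 184, and in a non-coding exon of Phtf2 (chr5:20788741-20789741) they were 5 and 8 against 155 and 154. The B6/B6 and infertile bins were centred at 65053242 and 65053594 near Apela, and at 20789241 and 20788993 in Phtf2. Introns of Rp9 and Lingo2 held bins with 7 and 11 against 236 and 193, and with 1 and 2 against 47 and 52. The B6 share at these 4 bins was between 0 and 0.0232. The remaining site lay 158935 bp from Eya1, a transcriptional coactivator of organ development (chr1:14468670-14469670). The authors' column assigned it to both the B6 and the PWD allele, and the other largest rises to the B6 allele alone. Its counts were 6 and 6 in B6/B6 and 186 and 201 in the infertile F1. The B6 share was 0.274 over 155 informative reads, in the class from 0.1 to 0.3, with more of the mark on the PWD chromosome. DMC1 heat at the Eya1 bin was 15.6 in B6/B6 and 168 in the infertile F1.

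Of the 6 largest falls 5 are described here, and 1 of these rested on missing coverage. The bin near Gm5771 (chr6:41412519-41413519) had counts of 41 and 42 in B6/B6 and none in either infertile replicate. Its infertile input was also 0, so the bin was not covered in that table and its fall says nothing of the mark. Counts in an intron of Rsbn1l (chr5:20901498-20902498) were 46 and 63 in B6/B6 with an input of 26, and 7 and 10 in the infertile F1 with an input of 16. The log2 difference there was -2.33 (edgeR adjusted p = 1.3e-11), and DMC1 heat was 403 in B6/B6 and 21.8 in the infertile F1. Near Habp2 (chr19:56189649-56190649) the counts were 85 and 61 against 7 and 14. The enrichments there were 1.16 and 0.00607. The other 2 bins lay in introns of 4930505A04Rik and Gm27169, with counts of 28 and 27 against 4 and 4, and of 10 and 17 against 0 and 1. Not one of these 5 bins had the 10 informative reads needed for a share.

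**Figure D4:**
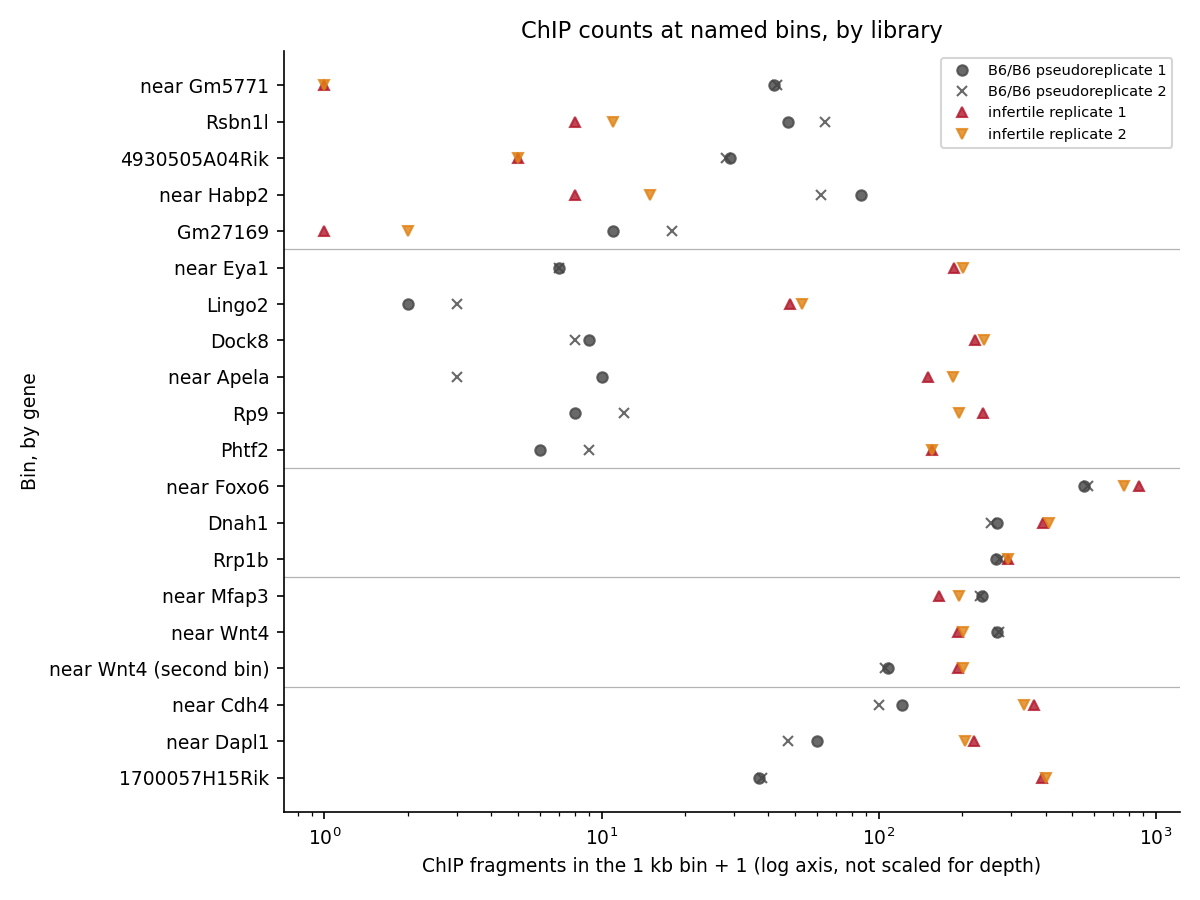
ChIP fragments per bin with 1 added (log axis, not scaled for depth) are plotted for the 2 B6/B6 pseudoreplicates and the 2 infertile replicates at bins named by gene, in blocks from top to bottom of the largest falls, the largest rises, and the most informative bins with B6 shares of 0.3 to 0.7, over 0.9 and under 0.1. Genotypes are far apart in the first 2 blocks (8 and 7 against 221 and 238 at Dock8) and the 2 symbols of a genotype lie close together at most bins.

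The bins with the most informative reads give the most precise shares. Of those under 0.1, the bin in an intron of 1700057H15Rik (chr4:124430274-124431274) had 36 and 37 fragments in B6/B6 and 388 and 400 in the infertile F1, with a B6 share of 0.00357 over 384 reads (exact interval 6.6e-05 to 0.0144). Those near Cdh4, the gene of a cadherin, and near Dapl1 were marked in B6/B6 as well, with 120 and 99 fragments against 362 and 332, and with 59 and 46 against 219 and 204. Their B6 shares were 0.0558 and 0.0581. A bin could therefore be measurable in B6/B6 and still be marked almost wholly on the PWD chromosome in the hybrid.

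Among bins marked on both homologues, the site 23882 bp from Foxo6, a forkhead transcription factor (chr4:120242697-120243697), had the most informative reads. It had 547 and 567 fragments in B6/B6 and 868 and 765 in the infertile F1, and a B6 share of 0.541 (exact interval 0.498 to 0.586). Within an intron of Dnah1, a dynein heavy chain of the sperm flagellum, counts were 265 and 254 against 389 and 412 with a share of 0.405. In a coding exon of Rrp1b they were 263 and 273 against 292 and 292 with a share of 0.471. All 3 were called higher by edgeR, with log2 differences of 0.90, 0.97 and 0.47. Choosing bins by informative reads of the infertile F1 favours high infertile counts, in this class and the others. Of all 1843 tested bins with a share from 0.3 to 0.7, edgeR called 430 higher and 480 lower. Among bins with a share over 0.9, the site 2134 bp from Mfap3 (chr11:57535449-57536449) had 234 and 231 fragments against 164 and 194, and a B6 share of 0.983. Its log2 difference after scaling was -0.04 (edgeR adjusted p = 0.85). Near Wnt4, the gene of a secreted signalling ligand, 2 B6/B6 bins met the same infertile bin, which had 192 and 200 fragments and a B6 share listed as 1. The hotter B6/B6 bin had 267 and 271 fragments and a log2 difference of -0.11 (edgeR adjusted p = 0.51), and its neighbour had 107 and 104. Such shared infertile bins were rare, 7 in all.

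The highest B6/B6 enrichments were at bins with very low input. The 5 top bins, near Lrp1b, Sgcz, Trps1 and Dsel and in an intron of Fstl5, had enrichments from 20.5 to 54.7 in B6/B6, but their input was 0 to 3 fragments there and 10 to 17 in the infertile F1. Near Lrp1b the ChIP counts were 29 and 26 in B6/B6 and 27 and 29 in the infertile F1, while the enrichments were 54.7 and 2.03. With at least 10 input fragments in both tables, a limit added after these values were seen, the highest bins lay near Cmpk2 and Prlhr and in introns of Rnf17, Grm7 and Trip12. Enrichment near Cmpk2 was 12.9 in B6/B6 and 10.9 in the infertile F1 (10.5 and 11.5 in the replicates), and near Prlhr it was 9.14 and 11.4. In Trip12 the values were 8.69 and 9.62. In Rnf17, a tudor-domain gene of the male germ line, they were 9.12 and 3.35. In Grm7 they were 8.89 and 6.54. After scaling for depth, but not for input, edgeR called the bins near Cmpk2 and Prlhr and in Trip12 and Grm7 higher in the infertile F1. Their log2 differences were 0.97, 0.77, 0.93 and 0.84 (edgeR adjusted p = 1.6e-09, 1.3e-06, 6.9e-09 and 5.9e-07). The Rnf17 bin was not called (-0.18, edgeR adjusted p = 0.39). Near Cmpk2 and in Grm7 the enrichment went the opposite way to the counts. The inputs in B6/B6 and the infertile F1 were 11 and 20 near Cmpk2, and 12 and 23 in Grm7.

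A list of 42 genes of meiotic recombination and chromosome synapsis was searched for these sites. Of the 40 genes found in the annotation, 2 had a pair within the gene or 2 kb of it. The share among all genes was not computed, so whether this count is low is not known. In an intron of Msh4, a MutS homologue that stabilizes crossover intermediates (chr3:153899952-153900952), counts were 46 and 45 in B6/B6 and 18 and 18 in the infertile F1, a log2 difference of -0.99 (edgeR adjusted p = 0.0012). The bin in an intron of Sycp2, a component of the synaptonemal complex (chr2:178404544-178405544), had 15 and 13 against 26 and 25, a log2 difference of 1.20 (edgeR adjusted p = 0.0015). Enrichment at the Sycp2 bin was 1.47 in B6/B6 and 1.05 in the infertile F1, the opposite direction, with inputs of 8 and 19. The B6/B6 and infertile bins were centred at 153900452 and 153900048 in Msh4, and at 178405044 and 178405247 in Sycp2. The counts compared at these sites thus cover partly different DNA.

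The reciprocal F1, with the same alleles and the same B6/B6 bins as the denominator, was read at the classes set by the infertile share. This uses libraries that did not define the classes, but shares the B6/B6 library with the comparison above. At 5425 pairs also present and unflagged in the reciprocal table, the log2 ratio of the reciprocal F1 to B6/B6 at shares under 0.1 was 2.72 above that of the middle class (2.64 and 2.73 in its replicates). At shares over 0.9 it was 0.78 below (0.88 and 0.84 in its replicates). The infertile values at the same pairs were 2.47 above and 0.67 below. The reciprocal B6 share had medians of 0, 0.482 and 1 in these 3 classes. The reciprocal medians were lower throughout, with -1.16 over these pairs against -0.01 for the infertile F1, and the reciprocal table has its own scale.

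B6/B6 against the reciprocal F1, at 5633 pairs classed by the reciprocal share, also had many sites marked on the PWD chromosome. Of its pairs with a share, 37.2% had a B6 share under 0.1 and 6.96% one over 0.9. A further like comparison, Hum/Hum B6 testis against the rescue F1 at 7408 pairs, had a different mix of classes. A B6 share under 0.1 was found at 2.77% of its pairs with a share and a share over 0.9 at 19.8%, against 25.5 and 7.35% here. The log2 ratio in the class over 0.9 was 0.78 below the middle class there and 0.70 below it here. In the class under 0.1 it was 1.06 above and 2.47 above. No test of these differences was made, since each inbred group was 1 library.

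By position, 52.5% of the 6477 bin centres lay in introns, 41.2% between genes and 2.45% in coding exons, and 1.39% were within 1 kb of the start of a coding gene. The classes of share differed little in this, with 52.3% in introns at shares under 0.1, 55.7% at 0.3 to 0.7 and 52.0% over 0.9. The letters GNTGCTNCT, searched on both strands, were found within 150 bp of the centre of 20.6% of the bins (95% Wilson interval 19.6 to 21.6%). Windows of the same length 1000 bp to each side held them in 5.26%, and those at Hum/Hum hotspots in 6.40%. In the B6 reference the share of bins with a match was 19.9% at B6 shares under 0.1, 22.6% at 0.3 to 0.7 and 20.5% over 0.9, with intervals that overlapped. B6/B6 bins with no partner in the hybrid had it in 19.7%. In 4 groups of equal size by B6/B6 enrichment, from low to high, the percentages were 19.8, 18.8, 21.9 and 21.8. Among the bins shown by sequence the match was present by choice. These letters on the reference were thus more frequent at the hotspot centres than in the flanks, though most centres lacked them. They did not separate the classes.

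**Figure D5:**
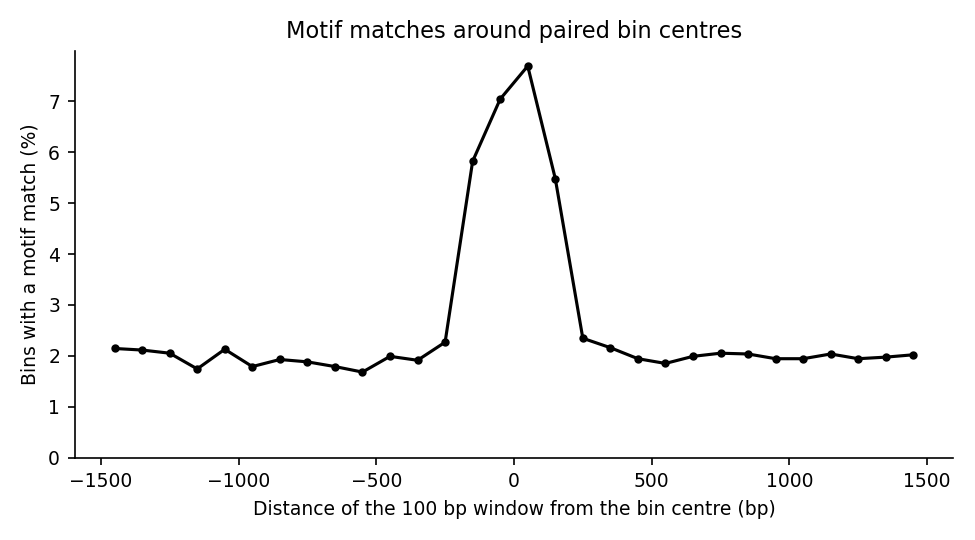
The percentage of the 6477 paired bins with at least 1 match to the motif is plotted by distance of a 100 bp window from the bin centre. It reaches 7.69% in the window just past the centre and stays near 2% beyond 250 bp on both sides.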

How the data were processed

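Per the file headers, the authors counted ChIP and input fragments in a bin of 1 kb around each DMC1 hotspot centre, and deposited these counts with an enrichment (a ratio to local background, minimum 0), a p-value for it, the fraction of signal from the B6 chromosome and the number of informative reads, a signal corrected for background. DMC1 heat is a deposited signal of hotspot strength. BWA, SAMtools and bedtools and the mm10 build are named per the submitters' processing notes; their versions, the peak caller and the handling of PWD reads that mismatch the reference were not stated there. No reads were processed here.

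Autosomal bins were paired by nearest centre. Replicate enrichments were recomputed as the ChIP excess over background per input fragment, fitted to the deposited values at bins with an input of 5 to 200. Counts of the 2 B6/B6 pseudoreplicates were summed and tested with edgeR 4.0.16 (quasi-likelihood, TMM factors from unflagged bins, Benjamini-Hochberg over all tested pairs, 1 residual degree of freedom per bin); DESeq2 1.42.0 was an alternative. The script was run on simulated data in which both genotypes had the same spread, so this does not bear on the assumption that the single B6/B6 library varies like the infertile ones. The sources used here do not say whether the 2 infertile replicates were separate animals. Intervals cover counting error only. At 30 to 40 fragments per bin, single weak bins are imprecise.

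Named bins were the 5 highest in B6/B6, the 6 largest rises and falls called by edgeR and of the same direction in every replicate, the 3 with the most informative reads in 3 classes, and those of the meiotic list; bins with input over 10 times the table median were not named. A named bin and a sequence example are not reported here. Gene positions are from GENCODE M21 and sequences from GRCm38.p6. The pairs, classes and lists were chosen with earlier results of these data known.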

Additional observations from a re-analysis of the deposited data

How the results depend on the processing

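The alternatives below kept the sign of the differences between classes of B6 share, of the 2 medians and of the rho, though in the coldest sites by B6/B6 heat the class over 0.9 lay above the middle class (0.95 against 0.38); the spread between infertile replicates was so small that most values moved by more than 1 SD of it. The median log2 ratio of the unflagged pairs (-0.17) was -0.19 with pairing within 500 bp and -0.19 within 250 bp, -0.12 with 0.5 added and -0.26 with nothing added, -0.12 at bins with a deposited p below 0.01 in both tables, -0.23 at bins assigned to the B6 allele, -0.23 without PWD/PWD hotspots nearby and -0.12 with an input of 10 or more in both tables. In the same order, the unflagged minus the flagged median (-0.43) was -0.39, -0.29, -0.35, -0.53, -0.45, -0.10, -0.30 and -0.40, and -0.44 without bins of high input. Leaving out an infertile replicate gave -0.14 and -0.12 for the first and -0.43 to -0.42 for the second. The difference of shares over 0.9 from the middle class (-0.70) was -0.73 at 500 bp, -0.78 at 250 bp, -0.54 with 0.5 added, -0.78 with nothing added, -0.64 at p below 0.01, -0.64 with 30 or more informative reads and -0.75 to -0.72 without a replicate. It was -0.96 with classes and values from the reciprocal table, -0.63 with classes from DMC1 reads and -0.78 in the reciprocal F1 at the infertile classes. That of shares under 0.1 (2.47) was 2.49 at 500 bp, 1.69 with 0.5 added, 2.57 with nothing added, 1.93 at p below 0.01, 2.53 at bins of the B6 allele, 2.51 without PWD/PWD hotspots, 2.37 with 30 or more informative reads, 2.48 with an input of 10 or more and 2.47 to 2.49 without a replicate. The 3 last settings of the class over 0.9 gave 1.77, 2.42 and 2.72. The rho (0.401) was 0.407 at 500 bp, 0.409 at 250 bp, 0.395 without high input, 0.391 at bins above 0 in both, 0.361 at p below 0.01, 0.420 with an input of 10 or more and 0.390 to 0.395 without a replicate. The B6-chromosome log2 ratio changed sign in 2 classes. At shares from 0.3 to 0.7 (-0.20) it was 0.15 with 30 or more informative reads. At shares over 0.9 (0.03) it was -0.07 at 250 bp, -0.02 at bins of the B6 allele, -0.02 without infertile replicate 2, -0.34 with classes from DMC1 reads and -0.87 with the reciprocal table, but 0.48 with 30 or more informative reads. The cause was not tested. The percentage of B6/B6 bins with a partner was 37.1 within 250 bp. DESeq2 called 1214 of 5396 tested unflagged pairs higher and 103 lower, against 2010 and 1711 of 6330 by edgeR. The median dispersion of DESeq2 was 0.0849, against a common dispersion of 0.00335 in edgeR. The input minimum, the classes from DMC1 reads and the reciprocal values at the infertile classes were added after the data had been seen. Without an infertile replicate the count comparison leaves 1 library a group, and pairs over 2-fold numbered 1361 to 1365 higher and 745 to 846 lower. No paired analysis was possible because the B6/B6 pseudoreplicates are splits of 1 library and share no number with the infertile replicates. Bins with an input of 0 to 3 fragments gave the highest B6/B6 enrichments.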

Other observations

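The 511 pairs flagged in both tables, where H3K4me3 probably does not come from PRDM9, also varied between the genotypes. Their median enrichment was 1.97 in B6/B6 and 2.54 in the infertile F1, with quartiles of the log2 ratio at -0.76 and 1.26. The authors' column assigned 74.4% of them to the B6 allele, against 95.2% of the unflagged pairs, and a PWD/PWD hotspot lay within 1000 bp at 13.9% against 4.31%. DMC1 heat was higher in the infertile F1 than in B6/B6 at 26.8% of the flagged and 17.6% of the unflagged pairs, on the scales of the 2 maps. Between autosomes, the median log2 ratio of the unflagged pairs ranged from -0.41 on chromosome 14 to 0.11 on chromosome 9.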
